A study of Mus musculus with 40 samples.

Results

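The transcripts followed here encode the TGF-β receptors, the Smads that carry their signal and the inhibitors that signal induces against itself, in CT26 tumors of mice given mAbs against GARP:TGF-β1, TGF-β and PD-1. They were chosen by name, as the rows of the count table for Tgfbr1, Tgfbr2, Tgfbr3, Smad2, Smad3, Smad4, Smad6, Smad7, Ski and Skil, 10 of the 54087 genes listed. All 10 passed the filter on low counts that left 14760 genes for testing. CT26 is a colon carcinoma line of BALB/c origin. Each of 40 BALB/c mice, syngeneic with the line, received 1000000 CT26 cells under the skin, mAbs on days 6, 9 and 12, and had pieces of the tumor taken on day 13, so that a group was 5 mice and a library was pieces of 1 tumor, host cells included. The study's methods give the age of its mice only as a range, and the labels give none. The 8 groups were an isotype control (motavizumab, a mouse IgG2a), anti-PD-1 FcS (an Fc-silent antibody), anti-TGF-β (clone 1D11, which neutralizes the free cytokine), anti-GARP:TGF-β1 (clone 58A2) as WT mouse IgG2a, the same clone as FcD (its Fc part does not bind Fc receptors), and the last 3 each combined with anti-PD-1 FcS.

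TGF-β binds the type II receptor, which recruits and phosphorylates the type I receptor, and the type I receptor phosphorylates Smad2 and Smad3. These bind Smad4, and the complex enters the nucleus and switches genes on or off, among them Smad7, Skil and Ski, whose products act back on the receptor or on the Smads. In tumors the pathway works in fibroblasts, endothelium, leukocytes and cancer cells alike. A bulk library averages over all of them, so fewer cells of a type and less RNA per cell cannot be told apart in any value given here.

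The libraries held 11931730 to 20680548 counts each (median 14030511). They were numbered 41 to 80, and the sum of 4 Y-linked genes was 266 to 1078 counts in libraries 41 to 60 against 0 to 1 in libraries 61 to 80, and Xist, the transcript of the inactive X chromosome, had 0 to 6 and 784 to 12701 counts in the same order, as in male and female tissue. The labels give no sex. Each group had 2 or 3 mice in either part. Of the genes of epithelial cells, Epcam had 0 to 580 counts (median 7.5), Krt8 0 to 2546 (median 18.5), Krt18 38 to 1620 (median 149.5) and Cdh1 9 to 320 (median 27). Library 77, from the combination of anti-GARP:TGF-β1 WT with anti-PD-1 FcS, stood apart with 782 CPM (counts scaled to a common library size) of the leukocyte gene Ptprc, against 59.9 to 371 in the other 39, and library 48, given anti-TGF-β, was the one at 371.

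Per kilobase of exon, Smad4 was the most abundant member in the isotype control tumors and Smad6 the least. Smad4, the partner shared by all receptor-activated Smads, reached 25.7 ± 1.73 RPKM (CPM per kilobase of exon, mean ± SD, n = 5). Ski, a corepressor that binds Smads in the nucleus, followed with 17.8 ± 1.30, then Tgfbr2, the ligand-binding type II receptor, with 15.04 ± 1.30, and Smad3 with 13.4 ± 1.20. Tgfbr3 (betaglycan), the coreceptor that presents ligand, stood at 12.1 ± 1.05 RPKM and Tgfbr1, the type I receptor kinase, at 9.32 ± 2.09. Smad7, the inhibitory Smad that docks on the type I receptor, was at 6.66 ± 0.976, Smad2 at 5.88 ± 0.505 and Skil (SnoN), the closest relative of Ski, at 5.27 ± 0.753. Smad6, an inhibitory Smad best known for restraining the BMP branch, was at 1.04 ± 0.105 RPKM. In that order the mice of neighboring genes overlapped in level, except between Smad4 and Ski and between Skil and Smad6, where they did not.

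**Figure D1:**
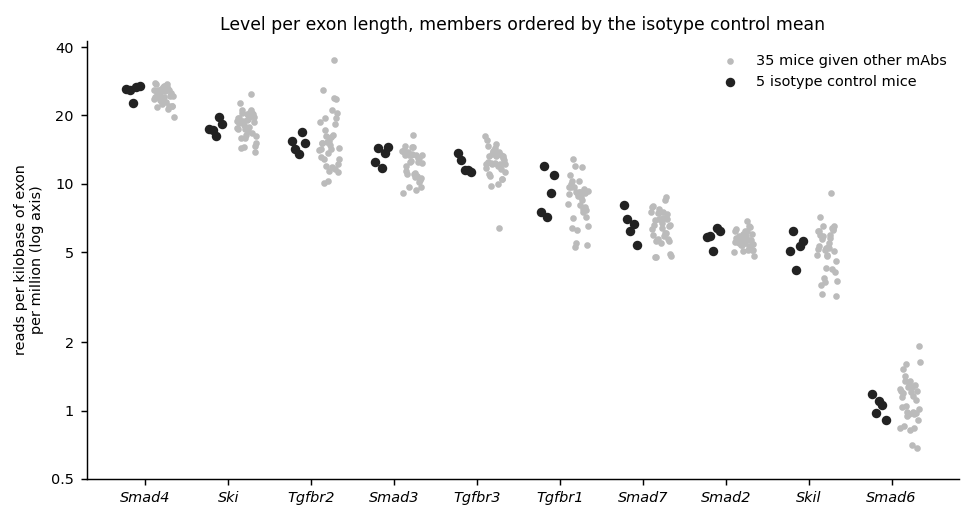
Level of each member in RPKM (log axis), with the 5 isotype control mice as black points and the 35 mice of the other groups as gray points. Smad4 lay highest, at 25.7 RPKM in the isotype control mean, and Smad6 lowest, at 1.04.

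In GRCm38, the members lie as follows, with those not named here given beside their levels. Tgfbr1 is at chr4:47353222-47414931 on the plus strand and Ski at chr4:155154075-155222592 on the minus strand. Tgfbr2 (chr9:116084293-116175360), Smad3 (chr9:63646767-63757994) and Smad6 (chr9:63953076-64022059) share the minus strand of chromosome 9. Tgfbr3 is at chr5:107106570-107289629 on the minus strand and Skil at chr3:31095058-31122577 on the plus strand. The exons of Tgfbr3 overlap those of a predicted gene on the same strand. That gene has no row in the count table, so what its reads add to the Tgfbr3 count cannot be told.

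RefSeq windows of 300 bases around the transcript start (GRCm38.p6) were at hand for 5 members, Tgfbr1, Tgfbr2, Smad3, Smad6 and Ski. The palindromic Smad-binding element GTCTAGAC was searched in them because Smad3 and Smad4 bind it. It was found in the window of Smad6 alone among these 5. In the stretch below, from chr9:64022046-64022073 on the minus strand, the capitals mark the palindrome, with 4 of its bases before the annotated start and 4 after it.
Smad6: ccgccaaagtGTCTAGACtggcatatga
The palindrome stood in 0.213% of all 32851 windows. The shorter letters CAGAC, or GTCTG on the other strand, stood in 49.6% of them, including the Tgfbr2 window and 1 of the 2 Tgfbr1 windows. A match describes these letters and no binding was measured.

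No member passed an adjusted p of 0.05 in any of the 19 comparisons made, each with the edgeR quasi-likelihood F-test, and DESeq2 called none either in the 17 it was run for. Over all genes DESeq2 called 860 of 31326 for anti-PD-1 FcS averaged over its backgrounds, 59 for anti-TGF-β averaged, and for the anti-TGF-β combination 139 against the isotype control and 78 beside anti-PD-1 alone. By edgeR the share of all tested genes that passed was 0% in most, with 0.00678% in each of the comparisons of the anti-TGF-β combination with anti-PD-1 alone and of anti-TGF-β averaged over both backgrounds, 0.589% for anti-PD-1 averaged over its 4 backgrounds, 0.0271% for any difference among the 8 groups, and 1.68% between the library parts. At an unadjusted p under 0.05 the test of any difference took 1 of 10 members, Smad3, against 24.7% of all genes, and leaving out single mice gave 0 to 2 members. The library parts took none, against 12.5%. The members are therefore described below by their values and intervals, and a count at an unadjusted p is read only against the share of all genes.

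Given alone, no mAb moved a member past an unadjusted p of 0.05. That count was 0 of 10 for anti-GARP:TGF-β1 WT against the isotype control (0.969% of all genes), for FcD (0.474%), for anti-TGF-β (2.32%) and for anti-PD-1 FcS (0.955%). The 40 log2 fold changes ran from -0.22 (Smad7 under anti-TGF-β) to 0.28 (Smad6 under anti-TGF-β), and their 95% intervals reached from -0.55 to 0.71. The 4 comparisons share the same 5 isotype control mice. Without library 59 or 78, Smad7 under anti-TGF-β passed the unadjusted threshold (-0.30 and -0.29).

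**Figure D2:**
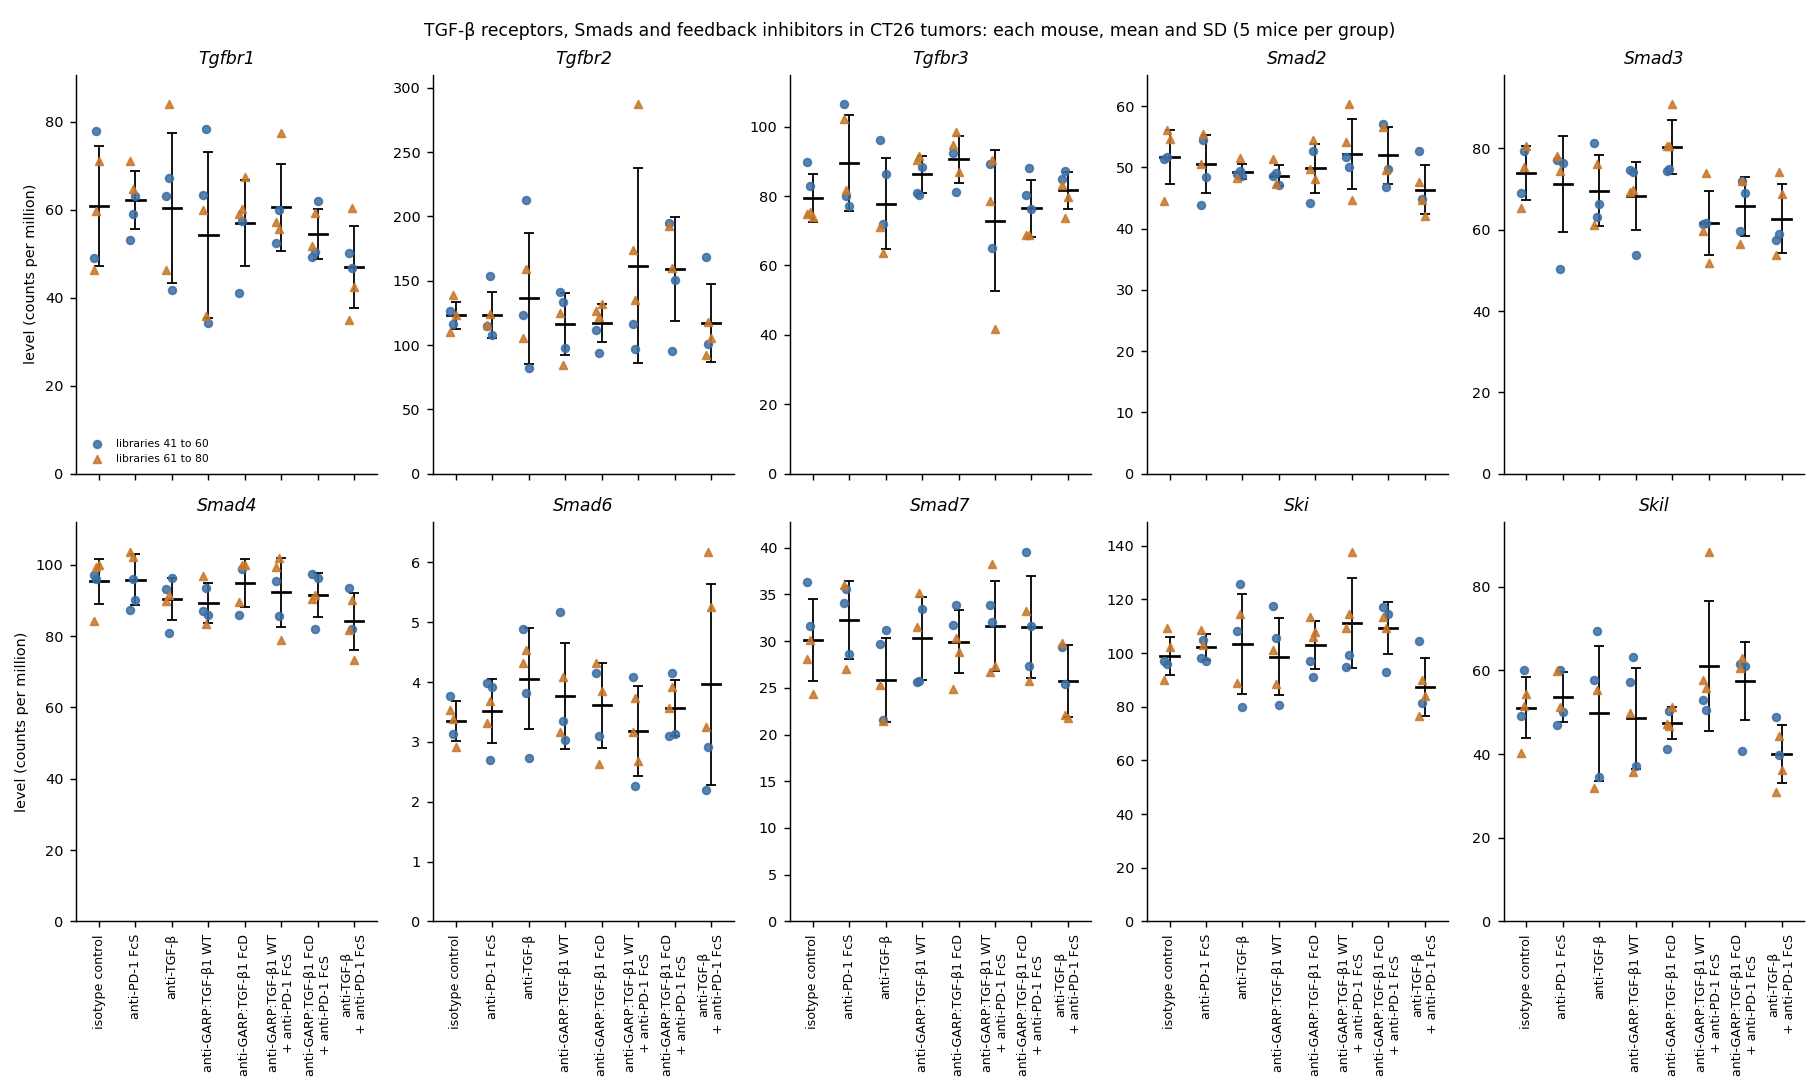
Level of each member in CPM for every mouse (circles, libraries 41 to 60, triangles, libraries 61 to 80), with group mean and SD, 5 mice per group and a separate axis from 0 for each gene. For every member each treated group overlapped the isotype control, and the Tgfbr2 value of 287 CPM in the combination of anti-GARP:TGF-β1 WT with anti-PD-1 FcS stood highest.

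Among the receptors, Tgfbr2 varied most between mice. Its highest group means, 162 and 159 CPM, were those of anti-PD-1 FcS given with anti-GARP:TGF-β1 WT and with FcD, and without library 77 the first was 130 ± 32.9 CPM (SD, n = 4). The next, anti-TGF-β alone, was at 137 CPM, and at 118 ± 32.4 (n = 4) without library 48. In the isotype control it was at 126, 117, 111, 139 and 124 CPM. With anti-PD-1 FcS alone it was at 115, 153, 107, 116 and 124 CPM. In the WT combination with anti-PD-1 FcS it was at 116, 96.6, 174, 135 and 287 CPM. Library 77 carried the 287, library 64 the 174, and of the other 3 mice 1 lay under every control mouse and 2 within their span. With the FcD form and anti-PD-1 FcS the levels were 195, 95.5, 151, 193 and 160 CPM, so that 4 of 5 mice were above every control mouse and 1 was below them all. Against the isotype control these differences were 0.39 on the log2 scale (95% interval -0.08 to 0.86, edgeR adjusted p = 0.314) and 0.37 (-0.10 to 0.84, adjusted p = 0.398). Without library 77 the first was 0.08, while without library 45 or 55 it was 0.49 or 0.53 and passed an unadjusted p of 0.05, as the second did without library 50 (0.49). For WT the difference was -0.20 within libraries 41 to 60, and within libraries 61 to 80, which hold library 77, 0.61 (0.31 without it). For FcD the same parts gave 0.22 and 0.51.

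Under anti-TGF-β alone Tgfbr2 stood at 124, 213, 82.1, 106 and 159 CPM, the widest spread of the single treatments, and library 48 held the 213. Against the isotype control this was 0.15 (95% interval -0.32 to 0.62), and -0.07 without library 48. The group means of Tgfbr2 ran from 116 CPM (anti-GARP:TGF-β1 WT) to 162 CPM (its combination with anti-PD-1 FcS), and the SD of log2 values within groups was 0.38.

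Tgfbr1 was lowest in the combination of anti-PD-1 FcS with anti-TGF-β. There it was at 50.2, 46.8, 35.1, 60.4 and 42.6 CPM, against 53.2, 59.0, 63.1, 71.1 and 64.9 with anti-PD-1 FcS alone. All but 1 of these mice, the one at 60.4, lay under the lowest of the anti-PD-1 FcS group. The log2 fold change was -0.41 (95% interval -0.80 to -0.02, edgeR adjusted p = 0.280), with -0.27 in libraries 41 to 60 and -0.60 in libraries 61 to 80. Against the isotype control, whose Tgfbr1 levels were 49.1, 78.0, 46.4, 59.6 and 71.2 CPM, it was -0.37 (-0.76 to 0.02).

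For Tgfbr3 the estimates for anti-GARP:TGF-β1 had one sign without anti-PD-1 FcS and the other with it. With anti-GARP:TGF-β1 WT alone its levels were 80.8, 80.2, 88.3, 90.3 and 91.5 CPM, and with FcD alone 92.4, 81.0, 94.6, 98.4 and 86.9, so that 2 WT and 3 FcD mice were above every isotype control mouse (89.8, 83.0, 74.9, 75.4 and 73.8 CPM). With anti-PD-1 FcS added they were 89.1, 65.0, 78.5, 90.4 and 41.7 CPM for WT and 80.4, 88.1, 76.1, 68.7 and 68.8 for FcD, so that 2 and 3 mice were below every mouse given anti-PD-1 FcS alone (106, 80.0, 77.1, 102 and 81.8 CPM). The groups overlapped in each of these comparisons. In libraries 41 to 60 WT had the same sign in both settings, and the log2 differences from the isotype control without anti-PD-1 FcS were -0.06 for WT and 0.0028 for FcD and those from anti-PD-1 FcS alone were -0.19 and -0.10. In libraries 61 to 80 they were 0.28 and 0.32, and -0.46 and -0.41. The interaction, the log2 difference made by the mAb with anti-PD-1 minus that without it, was -0.41 for WT (95% interval -0.79 to -0.04, edgeR adjusted p = 0.483) and -0.42 for FcD (-0.80 to -0.04, adjusted p = 0.787). Both interactions use the same isotype control and anti-PD-1 FcS mice. Tgfbr3 was the only member past an unadjusted p of 0.05 in either, 1 of 10 in a test that took 8.75% of all genes for WT and 4.49% for FcD. Without library 52 the FcD interaction took 2 members, the other being Smad3 (-0.34). Library 77 held the 41.7, and without it the WT interaction was -0.27. It then missed an unadjusted p of 0.05, as it did without library 47, 55, 63, 67, 73 or 78, and the FcD interaction missed it without library 47, 67 or 71. The WT combination against anti-PD-1 FcS alone, in which Tgfbr3 was again the 1 member taken (17.2% of all genes), gave -0.30 (-0.56 to -0.03, adjusted p = 0.261), and -0.15 without that library. It missed the unadjusted threshold without library 47, 55 or 67 as well. Against the isotype control -0.12 turned to 0.02 without library 77.

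Of the receptor-activated Smads, Smad3 had the smallest adjusted p of the members, for anti-PD-1 FcS, and Smad2 had group means within 46.4 to 52.2 CPM. Over the 4 backgrounds, Smad3 in the 20 mice given anti-PD-1 FcS ran from 50.3 to 78.2 CPM with a median of 65.2, and in the 20 mice without it from 53.8 to 90.9 CPM with a median of 74.6. The ranges overlapped over most of their length. The log2 fold change was -0.16 (SE 0.06, 95% interval -0.28 to -0.05), with edgeR adjusted p = 0.0937. It was -0.17 within libraries 41 to 60 and -0.15 within libraries 61 to 80. Smad3 was the 1 member past an unadjusted p of 0.05 there, in a comparison that took 23.4% of all genes. Leaving out library 48 brought its adjusted p to 0.0477 with a log2 fold change of -0.17, and no other mouse left out did so. In that fit 2243 of 14887 genes passed the adjusted threshold, against 87 of 14760 with all mice.

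By group, the Smad3 values of the anti-PD-1 FcS mice were 77.1, 50.3, 76.3, 78.2 and 74.4 CPM, close to the isotype control at 69.0, 79.4, 65.3, 75.5 and 80.7 except for library 52 at 50.3. The combinations lay lower, at 61.4, 61.6, 59.6, 74.0 and 51.9 CPM with WT, 59.7, 71.9, 68.9, 56.4 and 72.0 with FcD, and 57.6, 59.0, 53.8, 74.3 and 68.8 with anti-TGF-β. Of the 5 WT combination mice, 4 were under every isotype control mouse. Against that control the WT combination gave -0.26 (95% interval -0.49 to -0.03, edgeR adjusted p = 0.196), and this was the 1 member of 10 taken at an unadjusted p, where 20.7% of all genes were. Without library 77 it was -0.21, and it missed the unadjusted threshold then and without library 51, 64 or 78. The FcD combination, in which 0 of 10 members and 16.6% of genes were taken, gave -0.17 (-0.40 to 0.06). Against anti-PD-1 FcS alone the log2 fold changes of Smad3 were -0.21 for WT, -0.12 for FcD and -0.18 for anti-TGF-β. None passed an unadjusted p of 0.05. Without library 52 they were -0.31, -0.22 and -0.29, and each passed it. WT also passed it without library 69 (-0.28), and anti-TGF-β without library 66 (-0.25). These comparisons share the 5 anti-PD-1 FcS mice.

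Smad2 (chr18:76241580-76310963, plus strand) was more even than all members but Smad4, 42.1 to 60.3 CPM over the 40 mice and an SD of 0.12 within groups on the log2 scale. The widest estimate for it against the isotype control was -0.16 (-0.31 to 0.00221) in the combination of anti-PD-1 FcS with anti-TGF-β.

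Smad4 (chr18:73639009-73703780, minus strand), with an SD of 0.11 within groups, had its lowest group mean, 84.2 ± 7.94 CPM, in the combination of anti-PD-1 FcS with anti-TGF-β. Its levels were 93.3, 81.0, 96.4, 89.9 and 91.5 CPM with anti-TGF-β alone and 93.5, 82.0, 81.9, 90.3 and 73.3 with anti-PD-1 FcS added. The isotype control was at 97.2, 96.2, 84.2, 99.4 and 99.8 CPM and anti-PD-1 FcS alone at 87.4, 96.2, 90.02, 104 and 102. Averaged over both backgrounds anti-TGF-β gave -0.13 (SE 0.05, 95% interval -0.24 to -0.03, edgeR adjusted p = 0.278), with -0.08 in libraries 41 to 60 and -0.19 in libraries 61 to 80. The intervals bound the change of Smad4 under any mAb or combination against the isotype control to between -0.33 and 0.16 on the log2 scale.

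Among the feedback inhibitors, Smad7 (chr18:75367529-75395935, plus strand) had a mean of 25.8 ± 3.95 CPM in the 10 mice given anti-TGF-β, alone or with anti-PD-1 FcS, and 31.2 ± 4.2 in the 10 without it. Anti-TGF-β alone gave 29.7, 21.5, 31.1, 25.3 and 21.4 CPM, against 36.3, 31.6, 28.1, 30.2 and 24.3 in the isotype control. With anti-PD-1 FcS the levels were 29.4, 25.4, 29.9, 22.1 and 21.8 CPM, against 34.0, 35.6, 28.6, 36.0 and 27.0 with anti-PD-1 FcS alone. In either pair 2 or 3 of the 5 anti-TGF-β mice lay under every mouse they were compared with, and none lay above them all. Over both backgrounds the log2 fold change was -0.27 (SE 0.10, 95% interval -0.47 to -0.08), a level 0.827 times that without the mAb, with edgeR adjusted p = 0.242. The parts gave -0.29 and -0.30. Leaving out each mouse in turn gave -0.32 to -0.24, and the unadjusted p stayed between 0.00245 and 0.0176.

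Smad7 and Smad4 were the 2 of 10 members past an unadjusted p of 0.05 under anti-TGF-β averaged over both backgrounds, both lower, where 14.1% of all genes were taken and 7.64% were taken as lower. Without library 63 the count was 4 and without library 53 it was 5, while the count over all genes went from 2086 with all mice to 2919 and 3356. The median of the 10 members was -0.11 on the log2 scale, beside 0.02 for all genes. The anti-GARP:TGF-β1 mAbs averaged the same way took 0 of 10 members, WT against 5.77% of all genes and FcD against 2.47%. For Smad7 they gave -0.01 (95% interval -0.20 to 0.18) for WT and -0.02 (-0.21 to 0.17) for FcD. For Smad3 they gave -0.16 (-0.32 to 0.0011) for WT and 0.0021 for FcD, beside -0.14 for anti-TGF-β. Without library 42, 46, 49, 52, 63 or 69 the WT count was 1, and that member was Smad3. Whether anti-TGF-β differed from anti-GARP:TGF-β1 in its effect on Smad7 was not tested. These averages share their 10 control mice.

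**Figure D3:**
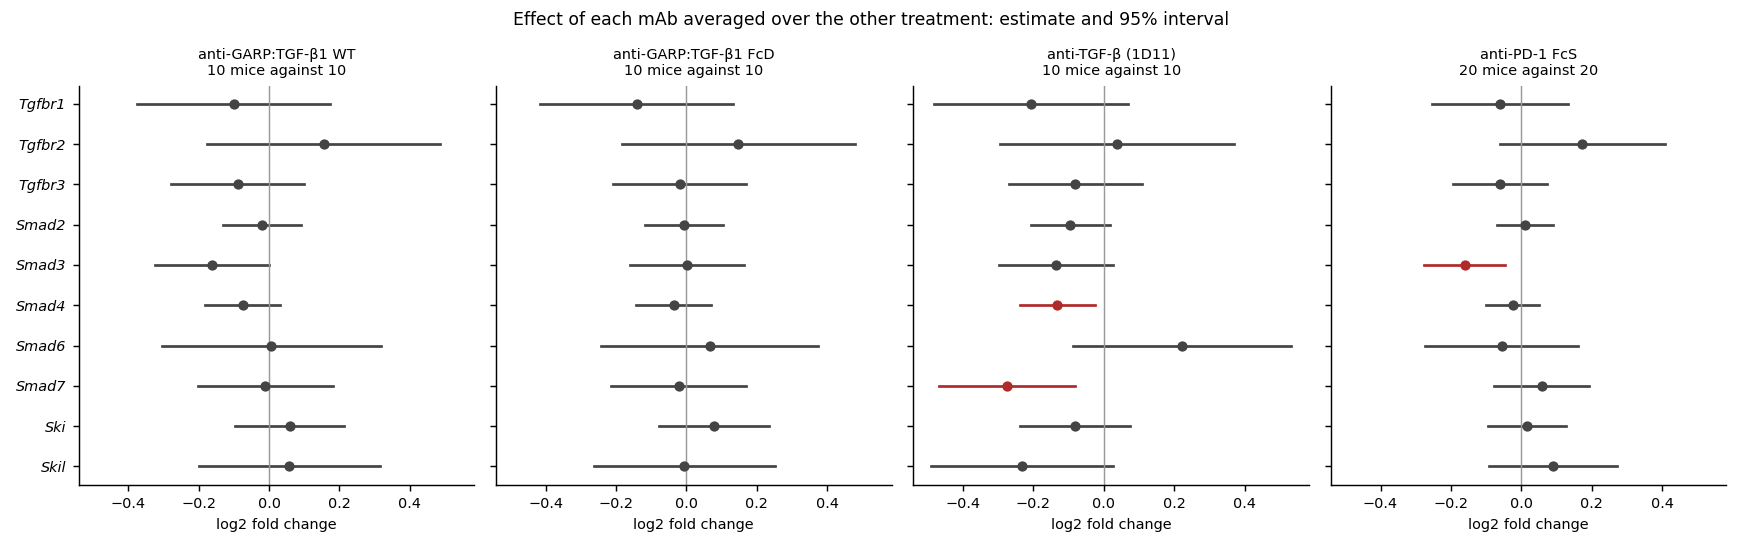
Log2 fold change of each member for each mAb averaged over the other treatment, with 95% intervals from the edgeR model, in red where the unadjusted p was under 0.05. Smad4 and Smad7 under anti-TGF-β and Smad3 under anti-PD-1 FcS had intervals that left 0 out, and no member passed after adjustment.

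Skil and Ski both had their lowest group means, 40.0 ± 6.93 and 87.3 ± 10.7 CPM, in the combination of anti-PD-1 FcS with anti-TGF-β. There Skil was at 48.8, 39.7, 31.0, 44.2 and 36.1 CPM, against 47.0, 60.1, 50.0, 59.9 and 51.4 with anti-PD-1 FcS alone, and 4 of its 5 mice lay under all of the latter. Ski was at 104, 81.5, 76.5, 89.9 and 84.0 CPM, against 98.0, 105, 97.2, 109 and 103, again with 4 of 5 under all of the comparison group. The log2 fold changes were -0.43 for Skil (95% interval -0.79 to -0.06, edgeR adjusted p = 0.242) and -0.23 for Ski (-0.45 to -0.01, adjusted p = 0.280). Within libraries 41 to 60 and 61 to 80 they were -0.24 and -0.59 for Skil, and -0.12 and -0.34 for Ski.

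Counted over the members, adding anti-TGF-β to anti-PD-1 FcS gave 5 of 10 past an unadjusted p of 0.05, all lower: Tgfbr1, Smad4, Smad7, Ski and Skil. Among all genes 17.1% were taken, 10.1% as lower. Leaving out single mice changed this count to between 1 and 6, with 1 left without library 67 or library 68, 2 without library 62 and 3 without library 52, 57 or 76. Tgfbr1 and Ski missed the unadjusted threshold when any of 6 libraries was left out, Smad7 with any of 4, Skil with any of 3 and Smad4 with 1. Over all genes the count was 2521 with all mice and 1386 to 4207 with 1 left out. Of the 10 estimates 9 were below 0, with a median of -0.19 beside 0.002 for all genes. The same combination against the isotype control took 2 of 10, Smad3 (-0.24) and Smad4 (-0.18), both lower, where 20.1% of all genes were taken and 11.6% as lower, and the count was 1 without library 51, 57, 68 or 74, 4 without library 53 and 5 without library 63. Smad3 missed the unadjusted threshold without library 51, 53, 57, 62, 74 or 78 (-0.22 to -0.19) and Smad4 without library 68 (-0.14). The count over all genes moved too, from 2972 of 14760 with all mice to 4041 of 14946 without library 63, and those lower from 1719 to 2385. Adding the FcD form to anti-PD-1 FcS took 0 of 10 (10.7% of all genes). For anti-TGF-β the interaction term took 0 of 10 (2.3% of all genes), although all 10 estimates were below 0, with a median of -0.11 beside -0.03 for all genes. Within each comparison the members share the same mice and are not separate replicates of the treatment.

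**Figure D4:**
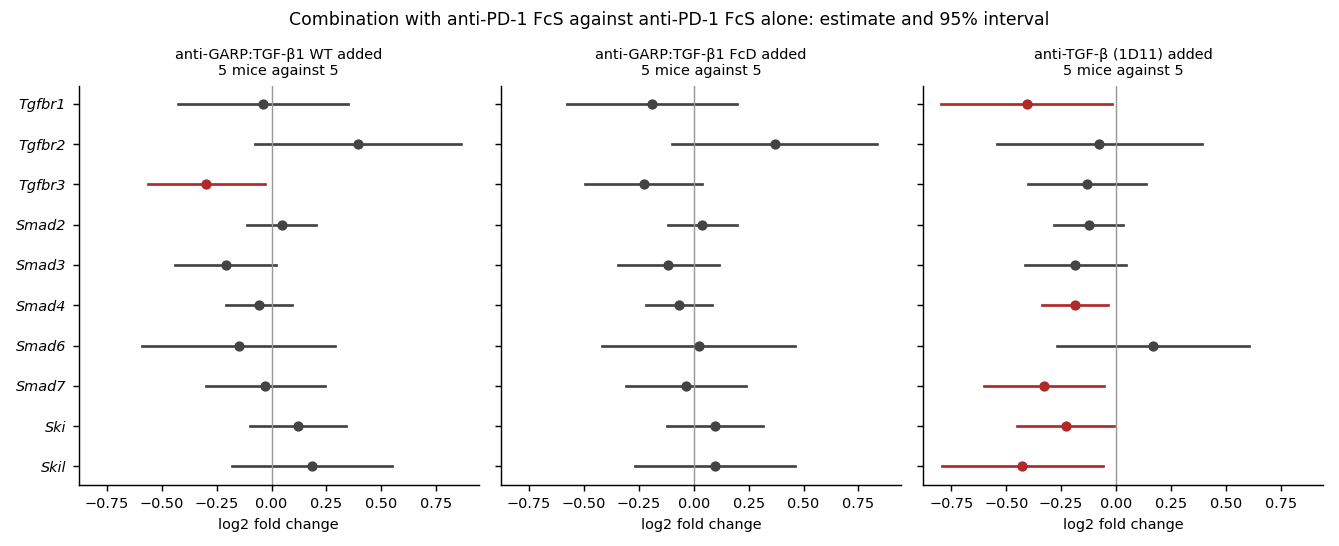
Log2 fold change of each member when a TGF-β blocking mAb was added to anti-PD-1 FcS, with 95% intervals, in red where the unadjusted edgeR p was under 0.05. With anti-TGF-β, 5 of 10 members were in red and 9 of 10 lay below 0, with the WT form 1 was in red (Tgfbr3) and with FcD none.

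Smad6 was measured with the fewest reads of the members, 29 to 78 per library. Its levels were 3.77, 3.14, 3.54, 3.38 and 2.91 CPM in the isotype control and 4.89, 3.82, 2.73, 4.31 and 4.53 with anti-TGF-β alone. Of the 5 mice given anti-TGF-β, 4 were above every control mouse and 1 was below them all. The log2 fold change was 0.28 (95% interval -0.16 to 0.71, edgeR adjusted p = 1.00). With anti-PD-1 FcS added to anti-TGF-β the 5 mice ran from 2.20 to 6.18 CPM, the lowest and the highest Smad6 of the whole study. Averaged over both backgrounds anti-TGF-β gave 0.22 (-0.09 to 0.53), with -0.16 in libraries 41 to 60 and 0.42 in libraries 61 to 80. Smad6 and Smad7, the pair of inhibitory Smads, thus had estimates of opposite sign under anti-TGF-β. The difference between these genes was not tested.

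Between mice of the same group, Tgfbr2, Ski and Skil varied together and with the leukocyte gene Ptprc. Each member was compared with the summed CPM of 10 marker lists over 40 mice, on the log2 scale after centering on group and library part, 100 relations in all with a permutation test. Tgfbr2 had r = 0.88 with Ptprc (Spearman rho = 0.81), Skil r = 0.78 (rho = 0.73) and Ski r = 0.76 (rho = 0.72). The permutation p was 1e-05 for each r, the smallest that 100000 resamples can give, and 0.000167 after adjustment. Without the mice farthest out, libraries 48 and 77, r was 0.82, 0.71 and 0.69. Within libraries 41 to 60 and 61 to 80 it was 0.88 and 0.88 for Tgfbr2, 0.80 and 0.77 for Skil, and 0.76 and 0.76 for Ski. All values of a mouse come from 1 library and share its depth.

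Tgfbr2 went with most other lists as well, with r = 0.83 (rho = 0.74) for the 6 endothelial genes, 0.75 (0.60) for the 6 macrophage genes, 0.72 (0.64) for the 6 T cell genes, 0.63 (0.52) for the 4 neutrophil genes and 0.60 (0.60) for the 8 fibroblast genes, each with an adjusted permutation p between 0.000167 and 0.0008. Without the 2 farthest mice these were 0.73, 0.61, 0.65, 0.44 and 0.58. For fibroblast genes r was 0.71 in libraries 41 to 60 and 0.32 in libraries 61 to 80. With the 4 adipocyte genes Tgfbr2 had r = 0.44 (rho = 0.41, adjusted permutation p = 0.0188), 0.48 without libraries 47 and 71, and with the 4 B cell genes r = 0.45 (rho = 0.46, adjusted permutation p = 0.0154), 0.45 without libraries 48 and 68. Ski had r = 0.66 with the endothelial genes (rho = 0.52), 0.62 with the fibroblast genes (0.53), 0.54 with the macrophage genes (0.40), 0.53 with the T cell genes (0.48) and 0.42 with the neutrophil genes (0.26), each with an adjusted permutation p for r between 0.000286 and 0.0272. Without the 2 farthest mice these were 0.53, 0.63, 0.35, 0.48 and 0.18. Skil had r = 0.59 with the endothelial genes (rho = 0.44), 0.56 with the macrophage genes (0.41), 0.48 with the T cell genes (0.39) and 0.44 with the fibroblast genes (0.35), with adjusted permutation p between 0.000917 and 0.0188. Without the 2 farthest mice these were 0.41, 0.35, 0.38 and 0.44. For fibroblast genes r was 0.76 in libraries 41 to 60 and 0.24 in libraries 61 to 80 for Ski, and 0.57 and 0.20 for Skil. Tgfbr1 had r = 0.52 with Ptprc (rho = 0.53, adjusted permutation p = 0.00312), and 0.49 without the farthest mice.

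Tgfbr3 and Smad3 leaned the other way. Tgfbr3 had r = -0.58 with Ptprc (rho = -0.42, adjusted permutation p = 0.000923) and -0.63 with the macrophage genes (rho = -0.40), and these were -0.41 and -0.40 without libraries 48 and 77. With the endothelial genes its r was -0.43 (adjusted permutation p = 0.0350), but rho was -0.11 and r without those libraries -0.06, so that this relation rested on them. Smad3 had r = -0.53 with the macrophage genes (rho = -0.49), -0.52 with the T cell genes (rho = -0.44) and -0.51 with the neutrophil genes (rho = -0.53), with adjusted permutation p of 0.00337, 0.00337 and 0.00375. Without the 2 mice farthest out on each list these were -0.49, -0.34 and -0.49. Smad2, Smad6 and Smad7 had no adjusted p under 0.05 with any list, and Smad4 had 1, r = -0.42 with the 4 B cell genes, which was -0.27 without libraries 48 and 68.

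**Figure D5:**
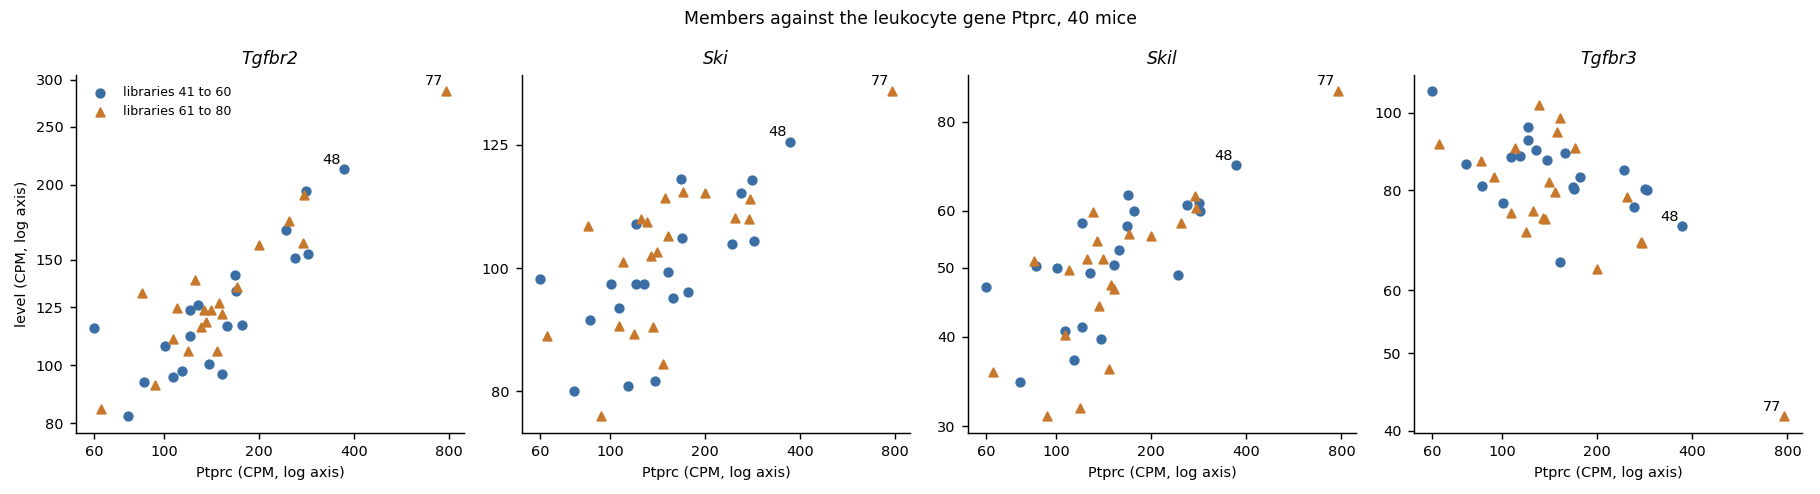
CPM of Tgfbr2, Ski, Skil and Tgfbr3 against CPM of Ptprc in the same mouse, both on log axes, 40 mice, with libraries 48 and 77 named. Tgfbr2, Ski and Skil were higher where Ptprc was higher and Tgfbr3 was lower, and library 77 lay at the far end in all 4 panels.

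Ranges of marker levels differed between the treatment groups too, and no marker sum was tested between groups. Ptprc was at 152 to 782 CPM in the WT combination and 107 to 282 in the FcD combination, against 107 to 176 in the isotype control, and the macrophage sum was 1309 to 5944, 1617 to 2595 and 1217 to 1790 CPM in the same order. Library 77 alone held the upper ends of the WT combination here and for the endothelial and neutrophil sums below. The next highest values there were 248 CPM for Ptprc, 2208 for macrophage, 176 for endothelial and 64.5 for neutrophil markers. Medians there were 170, 1546, 102.5 and 60.7 CPM in that order, against 128, 1473, 93.7 and 23.8 in the isotype control. In the combination of anti-PD-1 FcS with anti-TGF-β the macrophage sum was 1742 to 2248 and Ptprc 93.8 to 243 CPM. The B cell sum there was 84.4 CPM in library 68, the mouse with the lowest Smad4 of all. It was 3.51 to 4.86 CPM in the other mice of that group. With anti-PD-1 FcS alone the macrophage sum was 959 to 2245 and Ptprc 59.9 to 286 CPM. The endothelial sum was 67.8 to 455 CPM in the WT combination and 87.4 to 212 in the FcD combination, against 80.7 to 108 in the isotype control, and in the FcD combination library 44 had 212 and library 71 had 195. The adipocyte sum was 25.1 to 570 CPM in the FcD combination (248 in library 44, 570 in library 71), against 3.39 to 52.8 in the isotype control, and libraries 44 and 71 were the mice with 195 and 193 CPM of Tgfbr2. The neutrophil sum was 37.4 to 175 CPM in the WT combination, 35.7 to 166 in the FcD combination and 32.7 to 121 in the anti-TGF-β combination, against 21.4 to 61.4 in the isotype control. The epithelial sum was 342 CPM in library 71 and 153 in library 77, against 6.43 to 21.1 in the isotype control. T cell sums ran from 16.5 to 219 CPM in the combinations and the isotype control. Ptprc and every sum given here overlapped between each combination and that control. Under anti-TGF-β alone library 48 had 2989 (macrophage), 253 (endothelial), 270 (neutrophil) and 292 CPM (adipocyte). The other mice of that group had at most 1622, 108, 36.1 and 31.6 CPM in the same order. Markers of skeletal muscle summed to at most 13.99 CPM in 39 libraries, Myh4 having a median count of 0, and to 155 CPM in library 52, the anti-PD-1 FcS mouse with the lowest Smad3 of all. The part of these levels in the values of Tgfbr2 and Smad3 was not tested.

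By likeness over the same centered values, Tgfbr2 was nearest to Akap13 (r = 0.97), Jak1 (0.96) and Atp10d (0.96), and Skil to Trps1 (0.92), Vps13c (0.92) and Ddx6 (0.91). Ski was nearest to Notch2 (0.91) and Tgfbr1 to Zfp738 (0.87). Tgfbr3 was nearest to Ltbp3 (0.84) and Ltbp4 (0.83), which encode latent TGF-β binding proteins, and then to Ctnna1 (0.82). Smad7 was nearest to Phlda1 (0.87), to Bhlhe40 (0.83), itself among the genes known to be induced by TGF-β, and then to Slc2a1 (0.81). Smad4 was nearest to Dusp4 (0.90), Smad2 to Ly75 (0.87) and Smad3 to Plekha5 (0.85). Smad6 had no near neighbor, with Arhgef40 first at 0.69. Among the members themselves the closest pairs were Tgfbr2 with Ski (r = 0.89), Ski with Skil (0.88), Tgfbr2 with Skil (0.84), Tgfbr1 with Skil (0.82) and Smad2 with Smad4 (0.75). Among all genes ordered by r with Tgfbr2, Ski held only rank 182 and Skil rank 483. Smad4 held rank 170 for Smad2, while Skil held rank 7 for Ski and rank 6 for Tgfbr1. Tgfbr1 with Smad7 (-0.52) and Tgfbr2 with Tgfbr3 (-0.47) were the most opposed.

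Of the rest of the pathway, 0 genes were past an adjusted p of 0.05 by edgeR in any averaged comparison. At an unadjusted p of 0.05 those comparisons took 14.1% of all genes for anti-TGF-β (7.64% as lower), 23.4% for anti-PD-1 FcS, 5.77% for anti-GARP:TGF-β1 WT and 2.47% for FcD. Of 17 tested Smads, receptors and regulators outside the 10 members, anti-TGF-β averaged over both backgrounds took 6 at an unadjusted p, all lower, with a median of -0.09. The lowest p values were those of Zfyve9 (SARA, which anchors Smads at the receptor), 22.5 ± 2.77 CPM with and 26.3 ± 2.76 without the mAb (log2 fold change -0.23, edgeR adjusted p = 0.181), and Ppm1a, a Smad phosphatase, 124 ± 10.97 against 139 ± 4.74 CPM (-0.16, adjusted p = 0.220). Anti-PD-1 FcS took 4 higher and 2 lower, among them Acvrl1 (ALK1, an endothelial type I receptor) at 59.9 ± 18.3 against 48.8 ± 6.45 CPM (0.28, adjusted p = 0.0683) and Tgif2, a corepressor, at 6.65 ± 1.077 against 7.56 ± 1.04 (-0.19, adjusted p = 0.115). Anti-GARP:TGF-β1 WT took 1 higher and 2 lower and FcD 1 lower. Smad5, a Smad of the BMP branch, was among them for either form (-0.10 for WT and -0.11 for FcD).

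Of 12 tested ligand and latency genes, anti-TGF-β took 1 higher and 4 lower (median -0.16), where 14.1% of all genes were taken, and anti-PD-1 FcS 2 higher and 3 lower, where 23.4% were, while neither form of anti-GARP:TGF-β1 took any. Ltbp4, which tethers latent TGF-β to the matrix, was the first in both, at 339 ± 59.6 against 408 ± 41.8 CPM for anti-TGF-β (-0.27, edgeR adjusted p = 0.309) and at 339 ± 73.2 against 417 ± 62.2 CPM for anti-PD-1 FcS (-0.30, adjusted p = 0.0546). Thbs1 was at 85.3 ± 46.3 CPM with anti-PD-1 FcS and 51.3 ± 27.1 without it (0.71, adjusted p = 0.0574).

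Of 15 genes known to be induced by TGF-β, anti-TGF-β took 1 higher and 1 lower, beside 14.1% of all genes, and anti-PD-1 FcS 3 higher, beside 23.4%. Fn1 (fibronectin) was at 1155 ± 253 CPM with anti-TGF-β and 1691 ± 361 without it (-0.55, edgeR adjusted p = 0.142), and Id3 at 10.02 ± 3.75 against 6.36 ± 1.84 CPM (0.65, adjusted p = 0.285). Id3 is induced through the BMP type of Smads. Under anti-PD-1 FcS it was at 9.75 ± 5.38 against 6.73 ± 2.75 CPM (0.52, adjusted p = 0.0957). Neither form of anti-GARP:TGF-β1 took any of the 15.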

How the data were processed

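RNA from tumor pieces of each mouse was sequenced from stranded mRNA libraries (100 bp paired reads). Per the labels, the authors aligned reads with STAR 2.5.3a to GRCm38, handled them with SAMtools 1.6 and counted them per gene with HTSeq 0.9.1. The deposited table holds raw counts of 54087 genes in 40 mice, none pooled, and 27 of its gene names had been turned into dates and stayed unread. Every column belonged to a labelled mouse.

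Counts were scaled by TMM and filtered with filterByExpr in edgeR 4.0.16 (R 4.3.3), and 1 robust quasi-likelihood model with 8 group means was fitted to all 40 mice. P-values were adjusted by Benjamini-Hochberg over 14760 genes, and 95% intervals came from the model's standard errors. CPM are TMM-scaled, and RPKM divide by the exon union of GENCODE M21. Antisense transcripts were kept apart by the stranded counting only if the strand setting was right, which the sources used here do not state. Correlations used log2 CPM with a prior count of 2 and marker sums with 0.5 CPM added. Alternatives were DESeq2 1.42.0 (Wald test and size factors), no filter, only the groups compared, the library part as a covariate, and leaving out each mouse. The fit was tested on simulated data (14760 genes, anti-TGF-β against the isotype control). The pathway genes and marker lists were named by their known roles, the 3 nearest genes by their correlation, and list genes by the 2 lowest p values per averaged comparison. The members and lists were chosen with earlier results of these data known. Replicate libraries differed beyond sampling noise (chi-square per degree of freedom at least 5.44 over 80 pairs), so each mouse was counted once. Mice were taken as separate animals, as the design text states.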

Additional observations from a re-analysis of the deposited data

Results flagged for a closer look

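Of 80 sets of 5 values (10 members in the same 8 groups of 5 mice), 5 held a mouse far from the other 4 by Dixon's criterion, which chance alone gives in about 1 of 20 sets. Smad3 was low at 50.3 CPM in library 52 of the anti-PD-1 FcS group (group median 76.3 CPM), the library with 155 CPM of skeletal muscle markers, and at 53.8 CPM in library 56 of the anti-GARP:TGF-β1 WT group (median 69.8 CPM). Smad4 was at 84.2 CPM in library 63 of the isotype control (median 97.2 CPM). Skil was high at 88.3 CPM in library 77 of the anti-GARP:TGF-β1 WT combination with anti-PD-1 FcS (median 55.7 CPM), where Ptprc was at 782 CPM, and low at 40.8 CPM in library 50 of the FcD combination (median 61.1 CPM), where Ptprc was at 107 CPM. The part of these marker levels in the Smad3 and Skil values was not tested.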

How the results depend on the processing

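The number of members past an unadjusted p of 0.05 stayed within 1.5 times its value under DESeq2's Wald test, DESeq2 size factors and the library part as a covariate in every comparison these were run for. With only the groups compared in the fit it was 1 (0 with all mice) for FcD against the isotype control, 1 (0) for the FcD combination and 4 (2) for the anti-TGF-β combination against the isotype control, 0 (1) for the WT combination against anti-PD-1 FcS, 0 (1) for the WT interaction and 2 (1) for the FcD interaction. Over all genes that setting took 143 of 13495 (70 of 14760 with all mice), 2901 of 13648 (2445), 2821 of 13492 (2972), 939 of 13620 (2534), 1201 of 14092 (1291) and 1308 of 14144 (663) in the same order. Without the filter on low counts it was 1 (0) for WT averaged, with 1559 of 31326 genes taken (851 of 14760). Leaving out each mouse gave 0 to 2 members for the FcD combination and 0 to 2 for the WT combination against anti-PD-1 FcS, 1 to 6 for the anti-TGF-β combination, and against the isotype control 0 to 1, 0 to 2 and 1 to 5 in the same order. It gave 0 to 1 for WT averaged, 0 to 0 for FcD averaged, 2 to 5 for anti-TGF-β averaged and 1 to 2 for anti-PD-1 FcS averaged, 0 to 1, 0 to 2 and 0 to 2 for the WT, FcD and anti-TGF-β interactions, 0 to 1 for anti-TGF-β alone, 0 to 0 for each other mAb alone, and 0 to 2 for any difference. Of the members' fold changes with a mouse left out, 2352 kept their direction and side of the unadjusted threshold, 50 gained an unadjusted p under 0.05, 45 lost it and 153 changed sign. Counting the other settings too, 164 sign changes were seen in 54 fold changes, none of which was past that threshold with all mice, and the largest of them was 0.17 in size. Their log2 fold changes over the mice left out were as follows. In WT alone the ranges were -0.16 to 0.010 for Tgfbr2, -0.064 to 0.081 for Smad7, -0.073 to 0.059 for Ski and -0.19 to 0.019 for Skil. For FcD alone the ranges were -0.18 to 0.014 for Tgfbr1, -0.12 to 0.0027 for Tgfbr2, -0.051 to 0.023 for Smad4 and -0.075 to 0.069 for Smad7. In anti-TGF-β alone the ranges were -0.16 to 0.095 for Tgfbr1, -0.067 to 0.28 for Tgfbr2, -0.12 to 0.029 for Tgfbr3, -0.016 to 0.14 for Ski and -0.19 to 0.086 for Skil. For anti-PD-1 FcS alone the ranges were -0.054 to 0.14 for Tgfbr1, -0.091 to 0.050 for Tgfbr2, -0.083 to 0.013 for Smad2, -0.099 to 0.048 for Smad3, -0.037 to 0.037 for Smad4 and -0.0058 to 0.14 for Skil. In the WT combination against the isotype control the ranges were -0.11 to 0.098 for Tgfbr1, -0.21 to 0.023 for Tgfbr3, -0.045 to 0.065 for Smad2, -0.10 to 0.0031 for Smad4, -0.18 to 0.024 for Smad6 and -0.0089 to 0.15 for Smad7. For the FcD combination against the isotype control the ranges were -0.053 to 0.038 for Smad2 and -0.031 to 0.14 for Smad7. In the WT combination against anti-PD-1 FcS the ranges were -0.14 to 0.010 for Tgfbr1, -0.016 to 0.096 for Smad2 and -0.11 to 0.025 for Smad7. For the FcD combination against anti-PD-1 FcS the ranges were -0.017 to 0.069 for Smad2, -0.061 to 0.069 for Smad6 and -0.13 to 0.022 for Smad7. In the anti-TGF-β combination against anti-PD-1 FcS the ranges were -0.24 to 0.016 for Tgfbr2 and -0.036 to 0.33 for Smad6. For WT averaged the ranges were -0.00021 to 0.22 for Tgfbr2, -0.052 to 0.0052 for Smad2, -0.064 to 0.056 for Smad6, -0.053 to 0.025 for Smad7 and -0.028 to 0.097 for Skil. In FcD averaged the ranges were -0.054 to 0.011 for Tgfbr3, -0.037 to 0.0097 for Smad2, -0.050 to 0.028 for Smad3, -0.069 to 0.014 for Smad7 and -0.049 to 0.037 for Skil. For anti-TGF-β averaged the range was -0.071 to 0.10 for Tgfbr2. In anti-PD-1 FcS averaged the ranges were -0.0067 to 0.023 for Smad2 and -0.0090 to 0.037 for Ski. For the WT interaction the ranges were -0.012 to 0.29 for Tgfbr1, -0.0017 to 0.089 for Smad4 and -0.11 to 0.033 for Smad7. In the FcD interaction the ranges were -0.13 to 0.035 for Smad7 and -0.014 to 0.080 for Ski. For the anti-TGF-β interaction the range was -0.31 to 0.052 for Smad6. Signs also changed by DESeq2's Wald test, with -0.0016 for Tgfbr2 in anti-PD-1 FcS alone and 0.0013 for Tgfbr1 in the WT combination against the isotype control. Signs also changed with DESeq2 size factors, with -0.0018 for Tgfbr2 in anti-PD-1 FcS alone and 0.0024 for Tgfbr1 in the WT combination against the isotype control. Signs also changed with the library part as a covariate, with -0.0071 for Smad7 in WT alone, 0.0086 for Ski in WT alone, 0.0012 for Tgfbr1 in anti-TGF-β alone and 0.0026 for Smad7 in the WT interaction. Signs also changed without the filter, with 0.00015 for Smad4 in FcD alone. Signs also changed with only the groups compared, with 0.0012 for Ski in WT alone and 0.0061 for Tgfbr1 in the WT combination against the isotype control. The cause was not tested. DESeq2's Wald test was not run for any difference among groups. No paired analysis was possible because the labels give no replicate numbers that groups share. With 5 mice per group the intervals given beside each value bound what could be detected. Over all genes the number past an adjusted p of 0.05 by edgeR moved with the mice used: for anti-PD-1 FcS averaged it was 87 with all mice, 0 to 2243 with 1 left out (2243 without library 48), 385 with the library part as a covariate and 0 without the filter, and for the anti-TGF-β combination against the isotype control it was 0 with all mice, 730 without library 63 and 2006 without library 53.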
